A study of Mus musculus with 6 samples.

Results

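Freshly sorted natural regulatory T cells (nTregs) of mice lacking YAP in T cells were compared with those of wild type (WT) mice, gene by gene. The genes compared were those with at least 1 FPKM (fragments per kilobase of transcript, scaled to the mapped fragments) in either fresh nTreg library. This rule kept 10880 of the 23962 genes that the deposited transcripts give when summed by gene symbol. It used the level of a gene and not its difference between genotypes. Just inside it lay Zfp72, at 1.00 FPKM in WT and 0.529 in the knockout, and just outside it Phf21b, at 0.998 and 0.590.

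Both fresh groups were C57BL/6 nTregs, sorted by flow cytometry as CD4+ CD25 high cells from lymph nodes and spleens. They were frozen directly after the sort. The WT group carried no stated allele, and the YAP cKO group was YAP flox/flox with CD4-Cre. CD4-Cre is active in all T cells from the CD4 CD8 double-positive thymocyte onwards, so the deletion is not limited to Tregs. Each group was 1 library, the ages and the number of mice behind it are not stated, and no test between genotypes is possible. The other 4 libraries were WT and cKO naive CD4 T cells (sorted as CD25-) and WT and cKO nTregs stimulated with anti-CD3, anti-CD28 and IL-2. They share no library with the fresh pair and serve here as further readings of the same genes. Whether they came from other mice than the fresh pair is not known here, so these readings may not be independent. The labels give both 24 and 48 hours for that stimulation.

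Regulatory T cells are CD4 T cells that hold back immune responses and are defined by the transcription factor FOXP3 and by high CD25, the IL-2 receptor alpha chain. In spleen and lymph nodes they comprise resting cells, which keep the lymph node homing genes of naive T cells, and effector cells, which carry KLRG1, IL-10, granzyme B and receptors for inflamed tissue. YAP is a co-activator that enters the nucleus when the Hippo kinases are inactive and then drives transcription through TEAD factors. In Tregs it has been linked to signalling by activin and TGF-beta receptors.

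The targeted gene gave no check of the fresh labels. For Yap1 the fresh libraries of both genotypes gave 0 FPKM. On its transcript of 4143 nt, 3 fragments would have given 0.0799 FPKM in WT and 0.0842 in cKO, so a loss was not detectable at this depth. The naive libraries also gave 0. In stimulated nTregs Yap1 was 0.169 FPKM in WT and 0.235 in the library labelled cKO, from about 5 and 9 fragments, a ratio of 1.39 with a 95% counting interval of 0.425 to 5.36. It was thus not lower in that library, against the direction of its label, and an FPKM per whole transcript does not set the deleted part apart. The deposited columns name the genotypes WT and YKP, and YKP was read as YAP cKO because no other genotype remained. All directions below, in the fresh, naive and stimulated pairs, rest on that reading and not on the level of Yap1.

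The Treg identity of both libraries was plain and close to equal. Foxp3 was 46.6 FPKM in WT and 45.9 in cKO fresh nTregs, against 2.98 and 3.30 in the naive libraries. Il2ra, which encodes CD25, was 75.3 in WT and 63.7 in cKO. Ctla4, an inhibitory receptor central to suppression, was 663 and 604, and Ikzf2, the Treg factor Helios, 184 and 199. Of the 20 genes on a Treg core list, all were measured, 9 were higher in cKO and 11 lower, and the median difference was -0.03. Here and below a difference is log2(FPKM + 1) in cKO minus that in WT, a scale that understates the fold of genes at low FPKM. The ends of the list were Il2ra at -0.24 and Itgae, the CD103 integrin chain, at 0.47 (44.0 against 61.3 FPKM).

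Summed markers of other cells were lower in cKO for some lists and higher for others, and some single markers differed more than the sums. Summed FPKM of 17 listed B cell and plasma cell markers was 52.6 in WT and 43.8 in cKO, with Pax5 at 0 in both. Most of that sum was Cd74 (30.6 and 26) and Cd79b (12.0 and 11.2). The 20 myeloid and dendritic markers summed to 9.34 and 6.91, with 5 of them, among them Cd14 and S100a8, at 0 in both. Of the 5 myeloid markers measured 3 were higher in cKO, with a median of 0.10: Mpeg1 (0.498 and 1.03), Zbtb46 (1.00 and 1.14) and Tyrobp (0.536 and 1.13). The other two were lower, Lyz2, the macrophage lysozyme gene, at 3.78 and 1.12 and C1qa at 1.26 and 0.121. The class II gene H2-Aa was 3.14 and 0.985. The 10 NK and gamma-delta markers in the table summed to 249 and 266, nearly all of it Il2rb (246 and 263), the IL-2 receptor beta chain, which is also on the Treg core list. Of the 3 measured, Il2rb and Tyrobp were higher in cKO and Klrb1c (1.48 and 1.07) was lower, with a median of 0.09. Ncr1, an NK receptor gene, was 0.242 and 0.0853 and below the minimum. Stromal and endothelial markers summed to 53.4 and 53.1, of which Pecam1, an adhesion molecule of endothelial and blood cells, made up 53.1 and 52.5. Erythroid and platelet markers summed to 2.94 and 3.64. In such bulk libraries fewer cells of a type and less RNA per cell cannot be told apart.

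Library depth was read from the steps between low values, since FPKM carries no counts. By these steps a single fragment per kb came to roughly 0.110 FPKM in WT and 0.116 in cKO fresh nTregs. For a 2 kb transcript, 5 FPKM then meant some 90.7 and 86.0 fragments. Intervals given below are 95% intervals of the fold from such fragment estimates. They cover counting error only, not the spread between mice, and PCR copies were not marked.

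The 2 fresh libraries were close over most genes. The median difference was 0.00, the quartiles were -0.12 and 0.12, and 96.1% were within 1.5-fold. In cKO 69 genes (0.634%) were at least 2-fold higher and 43 (0.395%) at least 2-fold lower. Without short features such as small nucleolar RNA genes, these were 57 and 34 genes. Of those 91 genes, 85 had a fragment estimate, and for 80 of them, 50 higher and 30 lower, the counting interval of the fold left out 1. The genes were picked by the fold in the same libraries, so this count is largely set by that choice. It gives no support to the differences. On the higher side H2ac12, at 0.605 and 2.23 FPKM, was the last gene past 2-fold, and Arhgef16, at 0.0408 and 1.08, lay just short of it. On the lower side these were Ctrl, at 1.32 and 0.154, and Xlr3b, at 4.47 and 1.75.

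**Figure D1:**
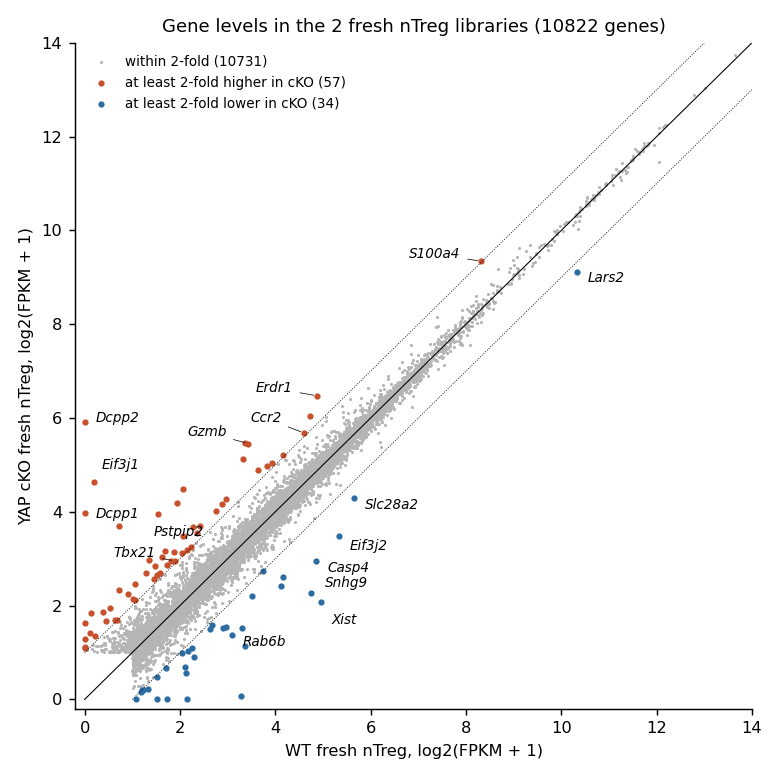
Level of each measured gene that is not a short feature in the WT (x axis) and YAP cKO (y axis) fresh nTreg library, both as log2(FPKM + 1), with 1 point per gene and dotted lines at a 2-fold difference. The 57 orange genes above the upper line include Gzmb, Tbx21, Ccr2 and S100a4, and the 34 blue genes below the lower line include Xist, Casp4 and Slc28a2.

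Genes of effector Tregs were higher in the cKO library. Of 30 genes on an effector Treg list, all measured, 24 were higher in cKO and 6 lower, where 50.0% of all measured genes were higher. Their median difference was 0.39 against 0.00 for all measured genes, 8 were at least 1.5-fold higher (2.41% of all genes were), and 3 were at least 2-fold higher. The summed FPKM of the list was 1536 in WT and 2320 in cKO.

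Gzmb, which encodes the cytotoxic protease granzyme B, was 9.80 FPKM in WT and 42.9 in cKO. That is a 4.37-fold difference with a counting interval of 3.59 to 5.34. S100a4, a calcium-binding protein of motile effector and memory cells, was 319 in WT and 647 in cKO (2.03-fold, interval 1.90 to 2.17). It was one of the most abundant genes on either side of 2-fold. Klrg1, the lectin-like receptor that marks terminally differentiated Tregs, was 30.5 and 56.4 (1.85-fold, interval 1.63 to 2.10).

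Among other members of the list, Anxa2, an annexin, was 32.5 in WT and 63.5 in cKO. The galectin genes Lgals1 and Lgals3 were 167 and 3.46 in WT against 283 and 8.03 in cKO. Itgb1, the integrin beta 1 chain, was 163 and 244. Among secreted mediators, Il10, the anti-inflammatory cytokine, was 44.9 and 67.9, and Fgl2, a suppressive fibrinogen-like protein, was 17.2 and 26.3. Areg, the tissue repair factor amphiregulin, was 30.6 and 30.2 and thus nearly equal.

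Among the transcription factor genes of the list, Prdm1, which encodes Blimp-1, was 5.88 in WT and 7.66 in cKO, Batf 63.2 and 82.6, Irf4 26.4 and 32.5, and Id2 71.9 and 95.3. Rora, a nuclear receptor of tissue Tregs, was 19.7 and 33.6. The 6 members below WT were Ebi3 (8.25 and 6.40), Pdcd1, which encodes PD-1 (34.3 and 27.7), Tnfrsf9, which encodes 4-1BB (56.4 and 46.0), Lag3 (6.07 and 5.41), Cd44 (39.5 and 37.9) and Areg. Checkpoint receptors as a list showed no common side, with 5 of 12 measured members higher and a median of -0.04.

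In the stimulated pair, 27 of the 30 effector Treg genes were higher in cKO, with a median of 0.44, where 55.0% of all genes were higher. Of the 30, 23 were higher in both nTreg pairs, as were 3521 of all 10880 genes. In the naive pair 17 were higher, with a median of 0.09, where 49.9% of all genes were. Gzmb was 8.94 in WT and 20.2 in cKO stimulated nTregs, and 0 and 0.353 in naive cells. S100a4 was 73.5 and 125 in the stimulated pair and 7.54 and 12.8 in the naive pair.

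**Figure D2:**
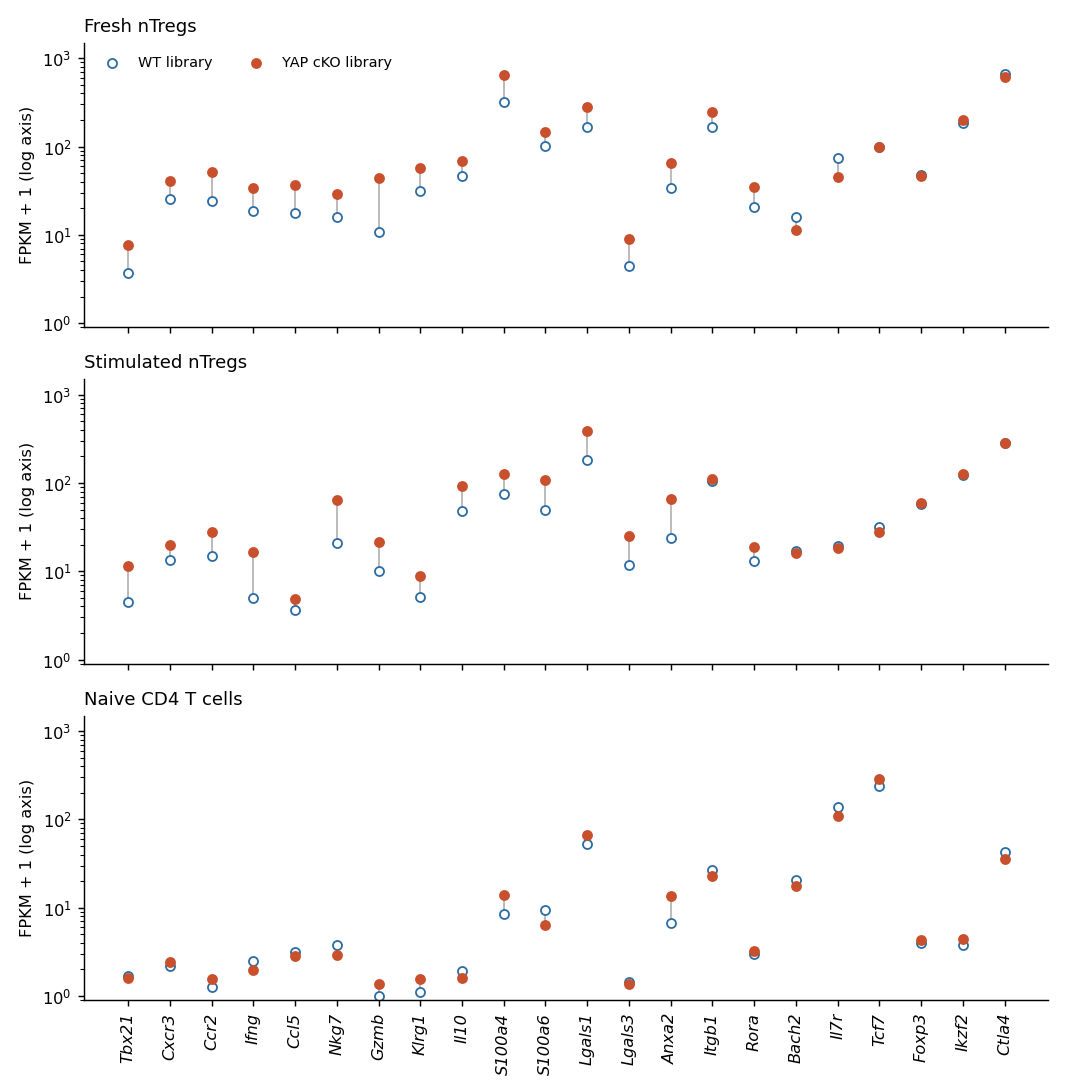
FPKM + 1 on a log axis of effector, type 1, resting and core Treg genes in the 3 populations, with open circles for the WT library and filled circles for the YAP cKO library (1 library each). Gzmb lay at 9.80 and 42.9 FPKM and Tbx21 at 2.71 and 6.74 in fresh nTregs, and both were also higher in cKO in stimulated nTregs, while Foxp3, Ikzf2 and Ctla4 nearly coincide.

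The genes of type 1 responses, which T-bet controls in Th1 cells and in the Tregs that restrain them, were mostly higher in cKO. Of 19 measured members 15 were higher in cKO, as were 50.0% of all measured genes, and 8 were at least 1.5-fold higher, as were 2.41%. The median was 0.21, and 0.59 with a minimum of 5 FPKM. Tbx21, which encodes T-bet itself, was 2.71 FPKM in WT and 6.74 in cKO (2.49-fold, interval 1.83 to 3.41). Ccl5, a chemokine, was 16.8 and 36.1 (2.15-fold, interval 1.64 to 2.84). Ifng, the interferon gamma gene, was 17.7 and 33.2 (1.87-fold, interval 1.57 to 2.25).

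Members of the list that encode receptors lay on both sides. Cxcr3, the receptor for interferon-induced chemokines, was 24.5 and 40.2, and the IL-18 receptor genes Il18r1 and Il18rap 53.9 and 6.66 in WT against 76.5 and 11.7 in cKO. Nkg7, a protein of cytotoxic granules, was 15 and 27.8. Ccl4 was 1.08 and 2.96 with a wide interval of 1.12 to 9.25. The 4 members below WT lay close to it: Stat4 (66.4 and 60.8), Il27ra (92.3 and 86.4), Ifngr1 (149 and 144) and the perforin gene Prf1 (1.99 and 1.75). Eomes, the related factor of cytotoxic cells, was 0.498 and 0.589 and below the FPKM minimum. In the stimulated pair 15 of the 19 were higher in cKO, where 55.0% of all genes were, with a median of 0.40 and Tbx21 at 3.49 and 10.6. In the naive pair 6 were higher, where 49.9% of all genes were, with a median of -0.16.

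All 6 measured type 17 genes were higher in cKO, where 50.0% of all measured genes were, with a median of 0.38. None was 2-fold apart. The median was 0.22 with a minimum of 5 FPKM or with gene symbols as deposited, and 0.20 with no minimum. Maf was 51.3 and 59.9, Ccr6 11.0 and 12.5, and Ahr 13.7 and 15. Il17a itself was 0.522 and 1.21, an interval of 0.732 to 6.84 that includes no difference. Maf, Rora and Ahr also stand on the effector Treg list. Of 8 measured type 2 genes 6 were higher (median 0.17), with Gata3, the lineage factor, at 27.6 and 25.9 and Pparg at 0.391 and 1.57. The follicular list had 2 of 7 higher and a median of -0.10, with the follicle homing receptor Cxcr5 at 13.6 and 10.5 and Bcl6 at 8.17 and 7.55.

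Receptors that place Tregs in tissues differed in both directions. Ccr2, the receptor for monocyte-attracting chemokines, was 23.3 FPKM in WT and 50.2 in cKO (2.15-fold, interval 1.95 to 2.37), and 14.0 and 27.1 in the stimulated pair. Ccr3 was 1.91 and 3.54, and Cxcr6 14.9 and 20.4. Gpr15, a receptor for homing to the large intestine, was lower at 12.9 and 6.61 (0.513-fold, interval 0.396 to 0.661). Gpr183, which guides cells by oxysterols, was 51.2 and 40.3. Over the list, 10 of 16 measured genes were higher, with a median of 0.16, and 0.06 with no FPKM minimum. S1pr1, the exit receptor of lymph nodes, was 209 and 235.

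Genes of resting Tregs and naive T cells leaned to the opposite side, by small amounts. Of 20 measured members 16 were lower in cKO, where 50.0% of all genes were, with a median of -0.10, and 1 was at least 1.5-fold lower, as were 1.45% of all genes. That gene was Il7r, the IL-7 receptor alpha chain, at 72.2 in WT and 43.9 in cKO (0.608-fold, interval 0.568 to 0.651). Bach2, a repressor that holds Tregs in the resting state, was 14.8 and 10.2, Foxp1 58.4 and 47.1, and the survival gene Bcl2 89.4 and 72.3. The homing gene Ccr7 (161 and 150) and the factor gene Tcf7 (98.0 and 96.9) were within 10% of WT. In the stimulated pair 15 of the same 16 genes were also lower in cKO, where 44.7% of all genes were. Of the 5444 measured genes lower in the fresh pair, 2969 were lower in the stimulated pair too. The naive pair lay on the other side, with 14 of the 20 higher in cKO and a median of 0.09.

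**Figure D3:**
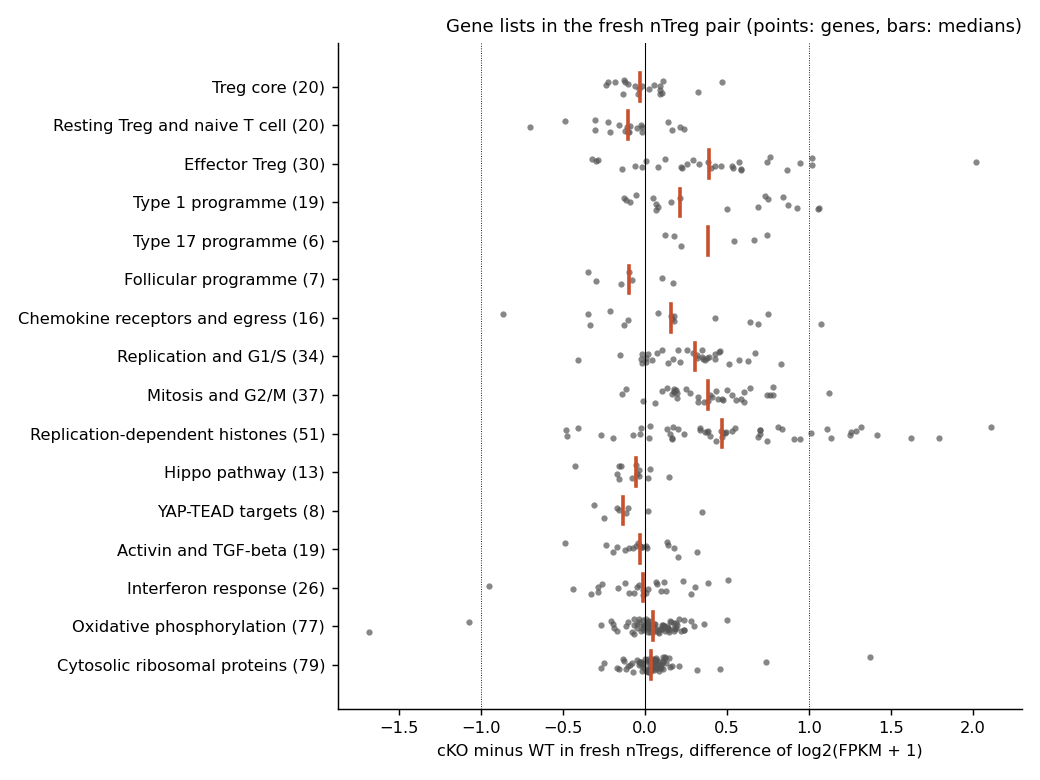
Difference of log2(FPKM + 1), cKO minus WT, in the fresh nTreg pair for each measured member (grey points) of 16 gene lists, with the number of measured members in brackets, list medians as orange bars and dotted lines at 2-fold. The medians of the effector Treg (0.39), type 17 (0.38), mitosis (0.38) and histone (0.47) lists lie to the right, and those of the Treg core (-0.03) and Hippo (-0.06) lists near 0.

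Genes of dividing cells were higher in the cKO library at low levels. On the mitosis list 34 of 37 measured genes were higher in cKO, with a median of 0.38, and 8 were at least 1.5-fold higher, against 50.0% and 2.41% of all measured genes. On the list for DNA replication and the G1/S step 29 of 34 were higher, with a median of 0.30 and 3 at least 1.5-fold higher. Ccnb1, the cyclin that starts mitosis, was 1.02 FPKM in WT and 3.38 in cKO (3.32-fold, interval 2.04 to 5.53). A near copy, Gm12856, covers 51.9% of its transcript, so its reads could be divided. Cdc20, an activator of the anaphase-promoting complex, was 2.00 and 4.03, and Cdca3 1.82 and 3.85.

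More abundant members gave narrower intervals. Top2a, the topoisomerase of chromosome segregation, was 10.8 and 19.0 (1.76-fold, interval 1.58 to 1.97), and Mki67, the proliferation marker Ki-67, was 11.2 and 15.9 (1.42-fold, interval 1.31 to 1.54). Anln, needed for cytokinesis, was 0.276 and 1.19. In the replication list Gins2, of the replicative helicase, was 1.57 and 3.57, Gins1 2.05 and 3.86, the primase gene Prim1 7.19 and 11.6, and Uhrf1 4.75 and 7.54. Genes with high FPKM in both libraries were nearly level, with Pcna at 231 and 234, Mcm4 at 34.6 and 34.8 and Smc4 at 391 and 354. Smc4 thus held most of the summed FPKM of the mitosis list, which came to 508 in WT and 518 in cKO. In the stimulated pair 36 of the 37 mitosis genes were higher in cKO, where 55.0% of all genes were, with Ccnb1 at 9.24 and 16.3 and Top2a at 57.3 and 105, and in the naive pair 29 were, where 49.9% of all genes were.

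The promoters of 4 of these mitosis genes are shown because these genes were higher together and mitotic promoters are known for CCAAT boxes, bound by NF-Y, and for the cell cycle homology region (CHR). The sequences are from RefSeq (GRCm38.p6), the 140 bases before each start, 5′ to 3′ on the gene's strand. Capitals mark CCAAT or its reverse ATTGG, and the CHR letters TTTGAA or their reverse TTCAAA.
Ccnb1: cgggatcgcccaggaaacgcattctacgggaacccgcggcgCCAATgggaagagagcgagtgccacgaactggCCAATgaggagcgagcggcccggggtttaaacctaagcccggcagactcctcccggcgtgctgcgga
Cdc20: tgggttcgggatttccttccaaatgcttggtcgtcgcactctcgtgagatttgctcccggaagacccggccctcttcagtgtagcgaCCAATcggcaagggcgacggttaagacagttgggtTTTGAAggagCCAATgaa
Cdca3: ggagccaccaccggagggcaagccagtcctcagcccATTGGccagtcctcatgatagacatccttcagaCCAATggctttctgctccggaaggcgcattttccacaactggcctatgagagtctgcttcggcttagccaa
Top2a: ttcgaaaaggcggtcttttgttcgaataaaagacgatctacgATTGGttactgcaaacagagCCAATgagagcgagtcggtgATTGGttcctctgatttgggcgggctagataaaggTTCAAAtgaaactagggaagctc
Ccnb1 lies on chromosome 13 (100786487 to 100786626, minus strand), Cdc20 on 4 (118437344 to 118437483, minus), Cdca3 on 6 (124830036 to 124830175, plus) and Top2a on 11 (99024190 to 99024329, minus).

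CCAAT letters occurred 99 and 67 bases before the start of Ccnb1, 53 and 8 before that of Cdc20, 104 and 71 before that of Cdca3, and 98, 78 and 58 before that of Top2a. The CHR letters lay 18 bases before Cdc20 and 23 before Top2a. In windows of 250 bases before the start, searched on both strands, CCAAT occurred in 25 of the 32 mitosis promoters found (78.1%), in 40.9% of those of measured genes and in 37.5% of all 27025 promoters. TTTGAA occurred in 13 of the 32 (40.6%), against 13.0% of measured and 18.3% of all promoters. These letters were not particular to the mitosis list. CCAAT occurred in 60.7% of the replication, 100% of the H2B and 79.4% of the other histone promoters, and TTTGAA in 17.9%, 83.3% and 29.4%. An E2F site, TTGGCGC, which can overlap ATTGG, occurred in 15.6% of the mitosis and 10.7% of the replication promoters, against 4.12% of measured genes and 2.31% of all. GGAATG, the core letters of TEAD sites, occurred in 2 of 40 promoters of the 2-fold higher genes, 2 of 28 of the 2-fold lower genes, 11.9% of measured genes and 14.4% of all. These letters are a description of the windows and not of binding.

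Replication-dependent histone genes, whose RNA is made in S phase and normally lacks a poly(A) tail, were higher in cKO and could be read because the libraries were made from ribosome-depleted total RNA. Of 65 such genes 51 were measured, 43 of them were higher in cKO and 11 at least 2-fold, against 50.0% and 0.634% of all measured genes, with a median of 0.47. Their summed FPKM was 1866 in WT and 2456 in cKO, a ratio of 1.32. The ratio was 1.39 for linker H1, 1.25 for H2A, 1.43 for H2B, 1.43 for H3 and 1.18 for H4 genes. H4c9 was 9.25 and 43.3 (4.68-fold, interval 3.53 to 6.29), H2bc13 9.06 and 33.8, and H1f5 14.3 and 32.1.

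Single histone genes differed in side. H2bc15 was 54.3 in WT and 38.6 in cKO, H4c3 186 and 140, and H3c1 23.5 and 16.6. Reads of near-identical histone copies can be split between them, so the sums are firmer than single genes. In the stimulated pair the sum was 3130 in WT and 5821 in cKO, and in the naive pair 1447 and 1640. The H2B octamer letters ATTTGCAT, or their reverse ATGCAAAT, occurred in 6 of 12 H2B promoters, 5 of 34 other histone promoters and 1.81% of all promoters.

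The pathway of the deleted gene itself was nearly level. Of the 24 Hippo genes 13 were measured and 10 of them were lower in cKO, where 50.0% of all measured genes were. The median was -0.06 and none was 1.5-fold apart. Stk3, which encodes the Hippo kinase MST2, was 7.31 and 5.17 (0.707-fold, interval 0.564 to 0.891), while Stk4, the more abundant kinase MST1, was 128 and 123, Lats1 15.8 and 14.1, and the adaptor gene Mob1a 104 and 105. Of YAP's partners and relatives, Wwtr1, which encodes TAZ, was 0.0230 and 0.0488, and Tead1 to Tead4 lay between 0 and 0.735 FPKM in both libraries.

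YAP-TEAD target genes were mostly silent in these cells. Of 22 listed targets 8 were measured, 6 of them lower in cKO, where 50.0% of all measured genes were. Their median was -0.14, and -0.03 with no FPKM minimum. Ccn1 and Ccn2, the matricellular genes most used as a YAP readout, were at 0 in WT and at 0.0592 and 0.0493 in cKO, and Ankrd1 was at 0 in both. Crim1 was 17.5 and 14.6, Nuak2 1.77 and 1.23, Axl 9.91 and 10.1, and Gadd45b 117 and 149.

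Among receptors and mediators of activin and TGF-beta, 7 of 19 measured genes were higher and the median was -0.03. Acvr2a, an activin type 2 receptor, was 7.60 and 5.14 (0.676-fold, interval 0.574 to 0.793). The type 1 receptor genes Acvr1b (8.49 and 7.71) and Tgfbr1 (48.9 and 56.3) differed less, and Acvr1c was below the minimum at 0.339 and 0.483. Smad2, Smad3 and Smad4, which carry the signal to the nucleus, were 13.1, 29.4 and 39.1 in WT against 12.8, 27.4 and 34.7 in cKO. Smad7, the inhibitory SMAD that the pathway induces, was 61.1 and 59.2.

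The inflammasome list held the gene with the fifth largest decrease under the naming rule. Casp4, the caspase that senses cytosolic lipopolysaccharide, was 28.0 FPKM in WT and 6.73 in cKO (0.240-fold, interval 0.186 to 0.305). It was lower in cKO in the naive pair (2.57 and 0.348) and in the stimulated pair (23.1 and 3.37) too. Its neighbour Casp1, the caspase that matures IL-1 beta and IL-18, was 28.7 and 19.5 in fresh nTregs. The flagellin sensor genes Naip5 and Naip6 were 10.8 and 5.28 in WT against 5.59 and 2.39 in cKO, and Naip2 was 10.2 and 9.69. Of 13 measured members 4 were higher, among them the adaptor gene Pycard (28.5 and 35.2), and the median was -0.14, -0.27 with a minimum of 5 FPKM and -0.09 with none.

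Casp4 lies on the chromosome of Yap1, on chromosome 9 at 5308849 to 5336791, about 2.60 Mb from it, and Casp1 about 2.62 Mb from it. Of the 12 measured genes within 5 Mb of Yap1, Casp4 was the one 2-fold apart and Casp1 lay at -0.53. Tmem123, a surface protein gene 0.14 Mb away, was 95.6 and 133 in fresh nTregs, 75.2 and 106 in naive cells and 88.5 and 94.4 in stimulated nTregs. The nearest genes, Birc2 and Birc3, inhibitors of apoptosis, were 86.4 and 70.4 in WT against 82.4 and 72.7 in cKO. No cause for the differences at Casp4 and Casp1 was tested.

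**Figure D4:**
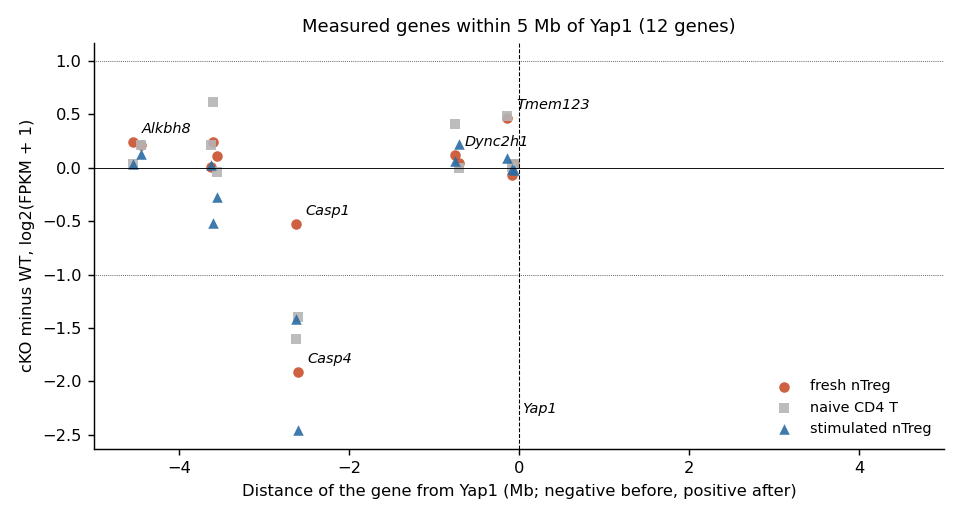
Difference of log2(FPKM + 1), cKO minus WT, against the distance in Mb from Yap1 (dashed line at 0) for the 12 measured genes within 5 Mb, with circles for fresh nTregs, squares for naive CD4 T cells and triangles for stimulated nTregs. Casp4 lies at -1.91, -1.40 and -2.46, Casp1 at -0.53, -1.60 and -1.42, and Birc2 and Birc3, next to Yap1, lie near 0.

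Among MHC genes, the classical class I genes were level and some nonclassical genes were higher in cKO. H2-K1 was 1811 and 1859, H2-D1 1064 and 1129, and B2m 3293 and 3386. H2-T10, a nonclassical class I gene, was 25.4 in WT and 65.0 in cKO, and its neighbour H2-T22, which covers most of its transcript at 95% identity, was 81.4 and 112. Their sum was 107 and 177, a ratio of 1.66. H60b, which encodes a ligand of the NKG2D receptor, was 2.82 and 17.2 (6.09-fold, interval 4.01 to 9.35), and also higher in cKO in naive (0.831 and 14.8) and stimulated cells (1.21 and 12.1). Ulbp1, another NKG2D ligand gene, was on the other side at 5.37 and 2.94.

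Interferon-response genes had no common side in fresh nTregs, with 12 of 26 higher and a median of -0.01. Isg15, a ubiquitin-like antiviral protein, was 15.5 and 22.4, Mx1 7.73 and 10.4, Irf7 36.1 and 29.4, and Ifi44 1.71 and 0.401. In the naive pair 23 of the same 26 genes were higher in cKO, where 49.9% of all genes were, with a median of 0.35. Whether the fresh and naive pairs differ in this list was not tested. IL-2 and STAT5 response genes were 9 of 17 higher (median 0.08) and NF-kappaB response genes 11 of 16 (median 0.04), with Nfkbia, the NF-kappaB inhibitor, at 506 and 662.

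Metabolic lists differed by small amounts. The counts that follow stand beside 50.0% of all measured genes higher in cKO, with a median of 0.00. Of 23 cholesterol synthesis genes 20 were higher in cKO, with a median of 0.17. The largest difference was Sc5d, a sterol desaturase, at 23.1 and 41.3 (1.79-fold, interval 1.65 to 1.93). Of 19 glycolysis genes 14 were higher (median 0.07), of 77 oxidative phosphorylation genes 52 (median 0.05), of 37 proteasome genes 29 (median 0.07), and of 79 cytosolic ribosomal protein genes 56 (median 0.04). The apoptosis list held 12 of 18 genes higher, with Bmf, a BH3-only gene, at 1.46 and 0.369.

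Several of the largest differences concerned genes with a near-identical copy elsewhere. Of 88 genes past 2-fold whose transcripts could be searched, 31 had another gene covering at least 50% of the transcript at 95% identity or more. Histone genes such as H2bc13 and H3c10 are among the 31. Genes within 2-fold were not searched, so this share cannot be set against that of all measured genes. Eif3j1, a translation initiation factor subunit, was 0.145 in WT and 24.0 in cKO, while its copy Eif3j2 was 39.1 and 10.2, and their sum was 39.2 and 34.1. Ndufs5, a complex I subunit, was 16.3 and 4.37 and its pseudogene Ndufs5-ps 0.647 and 11.9, with a sum of 16.9 and 16.3. Eno1b was 3.21 and 21.2, but together with Eno1, the glycolytic enolase, it was 146 and 151.

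Other pairs kept a difference when summed. Gm4070 and Gvin1, copies of a very large GTPase gene on chromosome 7, were 8.67 and 1.54 in WT against 0.0530 and 6.85 in cKO, and their sum was 10.2 and 6.90. The nucleoside transporter genes Slc28a2 and Slc28a2b were 49.3 and 16.9 in WT against 18.6 and 5.14 in cKO, with a sum of 66.2 and 23.7. The division of reads between copies is uncertain in each of these pairs, and the sums are the firmer values.

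Large differences without a near copy included genes of several functions. Pstpip2, an actin-associated adaptor of the myeloid lineage, was 1.89 and 14.4 (7.63-fold, interval 5.42 to 10.9). Ttbk2, a kinase of cilium assembly, was 2.24 and 7.95, and Gnb4, a G protein beta subunit, 4.15 and 10.7. On the lower side, Hmgn3, a nucleosome-binding protein, was 8.85 and 1.86, Rab6b, a Golgi GTPase, 7.52 and 1.59, and Cpm, the membrane carboxypeptidase M, 10.4 and 3.60. Tanc1 was 3.34 and 0.484. Mid1, a microtubule-associated ubiquitin ligase at the pseudoautosomal boundary, was 3.16 and 10.3, but with the deposited symbols in place of the reference names its difference was -1.40.

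The share of genes past 2-fold differed between chromosomes. All 91 had a position, and 40 of them lay in 13 groups with gaps of at most 1 Mb, 10 of the 40 being histone genes. How often measured genes in general lie so close was not counted. Some groups hold near copies side by side, such as Slc28a2 and Slc28a2b. The counts per chromosome leave out short features, unlike the share over all measured genes. Chromosome 13, which holds a histone cluster, had 12 of its 440 measured genes past 2-fold (2.73%), and chromosome 17 had 15 of 586 (2.56%), against 1.03% of all measured genes with short features and none of 610 on chromosome 1. On chromosome 2, a stretch of 0.61 Mb held Eif3j1, Sord, Slc28a2, Slc28a2b and AA467197, 3 higher and 2 lower, among 10 measured genes. On chromosome 10, H60b was higher while E030030I06Rik (5.34 and 1.99) and Gm10825 (9.36 and 1.20) within 0.29 Mb were lower. At the end of X, Mid1, G530011O06Rik and Erdr1 (28.4 and 87.7) were all higher.

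Some differences concerned genes outside the T cell programme. Dcpp1 and Dcpp2, demilune cell and parotid proteins of salivary glands, were at 0 in WT and at 14.8 and 59.6 in cKO. Against 3 fragments in WT these are at least 27.5-fold and at least 106-fold higher. The counting intervals, which also take in the error of the cKO value, start at 21.8-fold and 85.8-fold. Dcpp3, itself at 0 in both libraries, covers 100% of the Dcpp2 transcript, so reads could be divided between them. Bpifa2, a salivary protein gene, was 1.86 and 5.32 and Mucl2 0 and 1.43. The other 8 genes of the secretory gland list lay between 0 and 1.40 FPKM in both libraries, and all 12 lay between 0 and 1.71 in the naive and stimulated libraries. Their part in the other differences was not tested.

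Sex-linked genes also differed. Xist, the noncoding RNA of X inactivation, stood at 30.0 FPKM in WT against 3.21 in cKO (0.107-fold, interval 0.0973 to 0.117). The Y-linked genes Ddx3y (59.8 and 79.0), Eif2s3y (54.8 and 84.5), Uty (14.2 and 20.5) and Kdm5d (12.8 and 16.0) were present in both and higher in cKO. Both kinds of RNA were thus found in each fresh library, in unequal amounts. In stimulated nTregs Xist was 21.1 and 3.43, and in naive cells 12.5 and 8.76. The part of the sex of the cells in the other differences was not tested.

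RNA from ribosomal sequence and handling moved as well. Rn45s, the ribosomal RNA precursor, was 4225 in WT and 2799 in cKO, and Lars2, the mitochondrial leucyl-tRNA synthetase gene, was 1286 and 555, against 10.7 and 9.74 in naive cells. Of 20 immediate early and sort stress genes 14 were higher in cKO (median 0.13), where 50.0% of all measured genes were. The heat shock genes Hspa1a and Hspa1b were 4.39 and 17.3 in WT against 11.9 and 33.6 in cKO. Fos was 351 and 401, Jun 194 and 165, and Egr1 22.4 and 17.4. Of 22 measured small nucleolar host and long noncoding RNA genes 17 were lower (median -0.07), where 50.0% of all measured genes were. Among the 17 were Snhg9 (25.8 and 3.83) and Gt(ROSA)26Sor (18.5 and 9.69). What these differences contribute to the others was not tested.

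The same genes were read in the other populations, which may not be independent of the fresh pair. Of the 57 genes 2-fold higher in fresh cKO nTregs, 25 were also 2-fold higher in the naive pair and 28 in the stimulated pair. Over all 10880 genes the shares were 0.515% and 1.03%. Of the 34 lower genes, 16 were 2-fold lower in the naive and 12 in the stimulated pair, against 0.395% and 0.331% of all genes. In all 3 pairs 16 genes were higher, among them Pstpip2, H60b, Ttbk2, H2-T10 and Erdr1, and 6 were lower: Casp4, Gm10825, Jmjd7, Rab6b, Slc28a2 and Tanc1. Among the 16, Eno1b, Dynlt1b, Erdr1, Gm10653, H2-T10, H2bc12 and H2bc13 have a near copy, as do Gm10825 and Slc28a2 among the 6. Summed with Eno1, Eno1b differed by 0.04, 0.05 and 0.35 in the fresh, naive and stimulated pairs. Ndufs5-ps, also among the 16, differed by -0.05, 0.60 and 1.64 when summed with Ndufs5. H2-T10 with H2-T22 kept 0.73, 0.95 and 0.86.

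Genes 2-fold higher in both nTreg pairs and not in naive cells numbered 12, with Gzmb, Tbx21, Lgals3, H1f5 and Eif3j1 among them. The 6 lower in both nTreg pairs and not in naive cells were Airn, Eif3j2, Gm4070, Hmgn3, Xist and Zfp948. In the fresh pair alone 20 were higher, such as Dcpp2, Ccr2, Ccl5, S100a4 and Ccnb1, and 12 were lower, such as Lars2, Snhg9 and H2-Aa. Of these, Ccr2 (0.91), S100a4 (0.76) and Ccnb1 (0.76) lay on the same side just short of 2-fold in the stimulated pair. Lars2 (-0.89) did so on the lower side. Snhg9 lay at -0.77 in the naive pair and at 0 FPKM in both stimulated libraries, where it could not differ. In both naive libraries Gzmb, Tbx21, Lgals3, Eif3j1, Gm4070, Hmgn3, Dcpp2, Ccr2 and Ccnb1 lay below 1 FPKM. Such values cannot lie 2-fold apart on this scale, so the naive outcome of these genes was set by their level. The sum of Eif3j1 and Eif3j2 differed by -0.20 in the fresh, -0.31 in the naive and -0.16 in the stimulated pair.

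**Figure D5:**
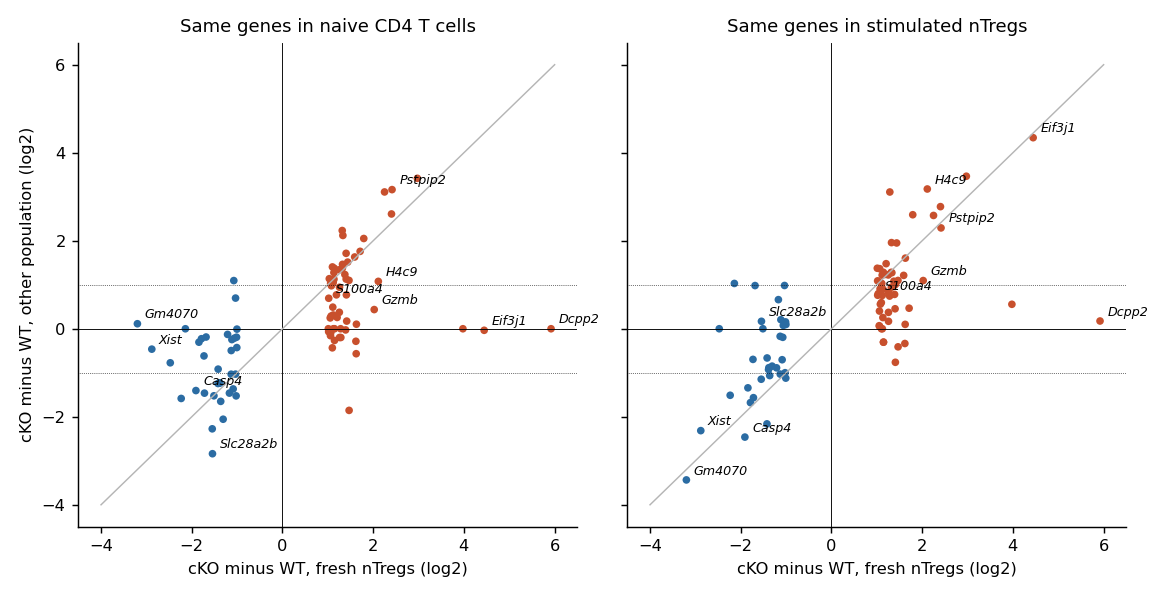
Difference of log2(FPKM + 1), cKO minus WT, in fresh nTregs (x axis) against that in naive CD4 T cells (left) and stimulated nTregs (right) for the 57 higher (orange) and 34 lower (blue) genes, with a grey line of equality and dotted lines at 2-fold. Pstpip2 and Casp4 lie near the line in both panels, and Eif3j1 and Gm4070 lie near it with stimulated nTregs and near 0 with naive cells. Eif3j1 and Gm4070 were below 1 FPKM in both naive libraries.

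Transcript use was mostly stable. Of 2230 genes with several transcripts and at least 5 FPKM in both fresh libraries, 44 had a transcript whose share of the gene changed by at least 40 percentage points. Of these, 2 did so in all 3 populations, and none in the same direction in all 3. Those 2 were 2010315B03Rik (41.7 points in fresh, 75.2 in naive and -42.4 in stimulated cells) and Tmem184b (44.0, 52.7 and -54.0). The median largest change was 5.77 points. The 4 largest concerned single transcripts of Map1lc3a (0.0356 and 6.22 FPKM), Fance (0.0795 and 4.99), Slc35c2 (0.000156 and 6.72) and Chka (1.25 and 6.68), while the genes as a whole differed by -0.14, -0.25, -0.14 and 0.03. H2-T10 was the gene past 2-fold among the 44. Its coding transcript was 2.10 in WT and 35.2 in cKO, 8.27% and 54.2% of the gene, and its noncoding transcript 23.3 and 29.7. In naive cells the coding transcript was 3.30 and 42.4, and in stimulated nTregs 0.479 and 18.7.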

How the data were processed

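Total RNA was sequenced in 6 libraries, 1 per group, from 322 ng of ribosome-depleted RNA with 12 PCR cycles and a strand-specific kit, per the labels' protocols. Reads went through FastQC, TopHat (mm10), Cuffdiff and Cuffnorm, per the submitters' processing notes, with versions not given in the sources used here. The deposited values are FPKM per RefSeq transcript, scaled across libraries by the authors with Cuffnorm, and depend on transcript length and library composition. The 165 transcripts listed more than once were counted once. FPKM were summed by gene symbol, taken from the reference annotation (RefSeq) where it named the transcript, and compared as log2(FPKM + 1) with pandas 2.3.3. Transcript lengths, and the transcripts searched for near copies, were from GENCODE (GRCm38). With 1 library per group no test was made. Near copies were searched with BLAST 2.17.0. Genes named were Yap1, Foxp3 and Il2ra, the 15 largest differences each way at 5 FPKM or more, list members with the largest differences or a defining role, and neighbours of Yap1. A few others, such as Tanc1, Gnb4, Arhgef16, Ctrl and Xlr3b, were chosen after their values were seen. The members and the 41 gene lists, 2 of which matched no gene (the receptor V segments), were chosen with earlier results of these data known. Other settings were pseudocount, FPKM minimum, scaling and gene symbols. A few genes, and the sort markers that name them, are not reported here.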

Additional observations from a re-analysis of the deposited data

Results flagged for a closer look

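With short features left out, for 3 genes past 2-fold in the fresh nTreg pair another population lay past 2-fold on the opposite side. Some short features did so too, such as Snora30, at 8.59 in fresh nTregs and -8.29 in naive cells. Btg3, an antiproliferative gene, was 3.41 FPKM in WT and 0.00134 in cKO fresh nTregs, while its difference in stimulated nTregs was 1.03. Summed with its listed copy it was 43.5 and 41.9 in the fresh pair. Cox7a1, a cytochrome c oxidase subunit gene, was 1.10 and 0 in fresh nTregs, and its difference in naive CD4 T cells was 1.09. D330023K18Rik, a long noncoding RNA gene, was 0.312 and 2.63 in fresh nTregs, and its difference in naive cells was -1.85. With 1 library in each group the difference between populations was not tested for any of the 3.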

How the results depend on the processing

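With a pseudocount of 0.1 in place of 1, 165 genes were at least 2-fold higher and 109 at least 2-fold lower in cKO fresh nTregs, and the mitosis median was 0.50. With a minimum of 5 FPKM, 27 genes were 2-fold lower. With the FPKM of both libraries rescaled to an equal sum over genes that are not short, the median of all genes moved by -0.02, the ribosomal protein median was 0.02 and the proteasome median 0.05. With gene symbols as deposited, Mid1 turned to -1.40 and H2-T10 stood at 3.55. Of 174 list medians under other settings, 2 had the other sign. The type 1 median was 0.59 with a minimum of 5 FPKM, and the type 17 median lay between 0.20 and 0.50 over the other settings. No paired analysis was possible because each group has 1 library. FPKM hold no counts, so fragment estimates and their intervals are approximate, and short genes at low FPKM rest on few fragments.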
